A study of Saccharomyces cerevisiae with 6 samples.

Results

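The autophagy genes of budding yeast were compared between cells of a floating biofilm and cells settled below it. They were chosen as the genes whose symbol in the platform's probe table is ATG followed by a number, each through a probe set paired with that gene alone and, where a gene had several, through the brightest. The rule found 36 genes among 5656 genes with such a probe set, of which 18 belong to the core machinery, 14 are factors mainly of selective autophagy, 3 act in the vacuole and 1, ATG45, was given no class. Cells of the Saccharomyces cerevisiae strain 3238-32, labelled MATa with the alleles leu2∆1 and lys2-801 and also ura3-52, were precultured for 24 h at 30°C in a sugar medium, which they used up. Washed cells were then put, 10-fold diluted, into beakers of 250 ml that held 100 ml of a yeast nitrogen base medium whose carbon source was 4% ethanol, with leucine, histidine and uracil added. After 48 h of standing at 27°C the biofilm at the surface, whose cells the labels name floaters, and the layer of settled cells, named sinkers, were harvested. Both groups therefore share strain, medium, temperature and time, and differ in where in the beaker the cells were. RNA of each was measured on 3 Affymetrix arrays, 6 in all. No label says which beaker an array came from; the p-values below rest on the spread between these samples alone, and that spread may be technical.

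Autophagy encloses cytoplasm in a double membrane, the autophagosome, and delivers it to the vacuole for breakdown. A core set of Atg proteins builds the membrane under starvation and in every other form of the process: the Atg1 kinase starts it, a phosphatidylinositol 3-kinase and the membrane protein Atg9 extend it, and the ubiquitin-like proteins Atg8 and Atg12 are conjugated in it. Selective forms add receptors that tie a cargo, such as mitochondria, peroxisomes, endoplasmic reticulum or the vacuolar enzymes of the Cvt (cytoplasm-to-vacuole targeting) pathway, to Atg8 and to the scaffold Atg11.

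The 6 arrays had median signals between 128 and 151 on the authors' linear scale and trimmed means of 500 (2% of probe sets cut at each end). The brightest of 19 unspiked control probe sets, an empirical background, read 16.3 to 21.9 on 5 arrays and 44.8 on bottom replicate 3. The ratio of the 3' to the 5' probe set of the actin gene ACT1, a sign of RNA integrity, was 1.54 to 2.04 in the biofilm and 1.80 to 3.84 in the bottom layer, highest in bottom replicate 3. Most markers of mating type went against the label MATa: all 4 α-specific genes exceeded the controls on every array, with summed signals of 5228 to 6357 in the biofilm and 3697 to 5526 in the bottom layer. The 7 a-specific genes summed to 91.5 to 121 in the biofilm and 218 to 295 in the bottom layer, with 1 to 4 of the 7 above the controls on an array and the pheromone receptor gene STE2 below them on all 6. MFA1, a gene for the pheromone a-factor, went another way, at 116, 123 and 108 in the bottom layer, above the controls on all 3 arrays, and 13.9, 18.2 and 6.87 in the biofilm. MFA2, also a-specific, was above the controls on bottom replicates 1 and 2 (59.4 and 113) and biofilm replicate 3 (64.2), and below them on the other arrays. None of the a-specific genes was bright enough to be tested, while 2 α-specific genes were higher and 2 lower in the biofilm. Of 12 middle sporulation genes, 6 to 8 exceeded the controls on a biofilm array and 3 to 9 on a bottom array, with summed signals of 451 to 586 and 668 to 961, and 1 of the 2 bright enough to be tested was lower in the biofilm. The part of RNA integrity and of these markers in the results below was not tested, except where a value with the ACT1 ratio as a covariate is given.

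Most ATG genes that changed had less transcript in the floating cells than in the settled ones. Of the 36 genes 30 were bright enough to be tested, and of these 19 passed, 16 as lower in the biofilm and 3 as higher, and the other 11 did not pass, at an adjusted p below 0.05 (limma's moderated test on log2(signal + 16), two-sided, Benjamini-Hochberg adjustment over 4242 genes). Over all genes tested the same rule called 62.5%, with 24.4% lower and 38% higher, against 53.3% lower and 10% higher among the tested ATG genes. The decreases of 10 ATG genes were at least 2-fold, a size that 13% of all genes tested reached in this direction. The 3 increases stayed under 2-fold, a size that 19.4% of all genes tested reached upward. Without overlap between groups the biofilm lay below the bottom layer for 16 of the 30 and above it for 4, against 26.7% and 41.3% of all genes tested. With the tested genes centred on their median, 17 ATG genes were lower and 2 higher, where 31.4% and 30.9% of all genes tested were called. Without bottom replicate 3, the array with the highest ACT1 ratio, 16 were lower and 2 higher, and with that ratio as a covariate 16 were lower and 1 higher. In bulk RNA, fewer cells that use a gene and less RNA per cell cannot be told apart. Over all 36 genes, dim ones included, the median log2 fold change (biofilm minus bottom layer) was -0.54, and it was 0.09 over the 5656 genes.

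**Figure D1:**
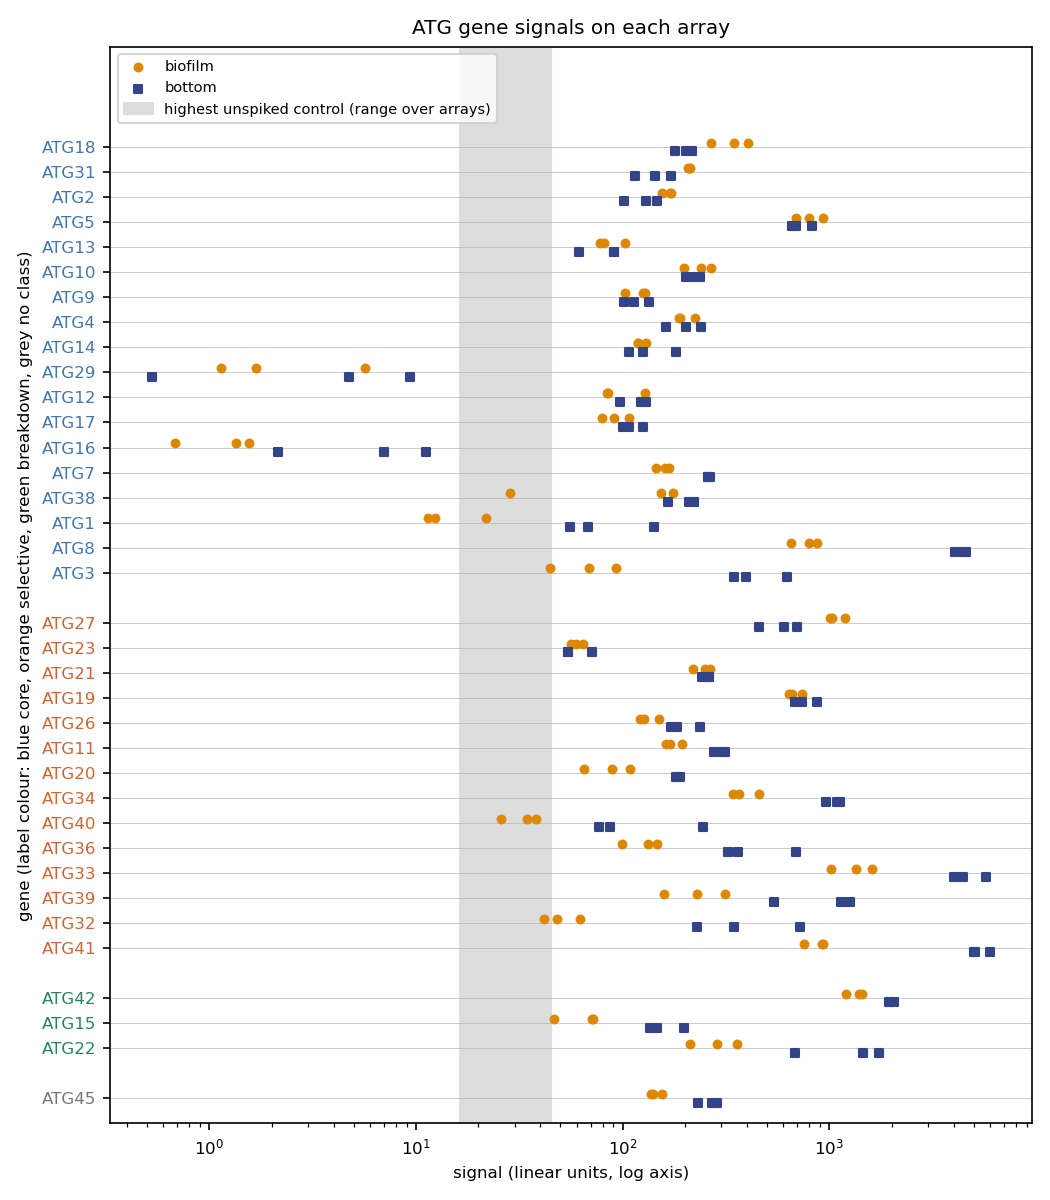
Signal of each ATG gene on each array (linear units on a log axis, 1 point per array, 3 biofilm arrays as circles and 3 bottom layer arrays as squares), ordered by class and change. The grey band spans the brightest unspiked control over the arrays, 16.3 to 44.8: ATG16 and ATG29 lie below the controls in both groups, and the groups of ATG8, ATG41 and ATG33 are far apart.

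The 6 genes too dim to be tested were ATG1, ATG13, ATG16, ATG29, ATG23 and ATG40. They were left out with the dimmest 25% of genes by mean over the 6 arrays, a filter that a gene dim in 1 group passes only through the other. The lower genes ATG3, ATG15 and ATG32 passed it in this way. Their biofilm means of 68.6, 62.9 and 50.5 lay under both group means of ATG13, which was left out. ATG20, at 87.5, was near that level. For such genes a lower call was nearly the only call open. The same limit holds for genes of the other lists that were dim in 1 group. Without this filter all 36 were tested, and 18 were lower and 3 higher, where the rule called 23.4% of 5656 genes lower and 33.0% higher. The 2 genes added to the lower ones were ATG1 and ATG40.

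Within the core machinery ATG8, ATG3 and ATG7 fell, ATG18 and ATG31 rose, and the other 9 genes tested did not pass. ATG8, whose product is attached to the lipid of the growing membrane, read 869, 650.4 and 800.1 in biofilm replicates 1 to 3 and 4036, 4567 and 4380.4 in the bottom layer. The groups were far apart and the arrays within each were close, with a 5.54-fold fall in the biofilm (log2 fold change -2.47, SE 0.15, adjusted p = 9.78e-07, limma). ATG3, which encodes the conjugating enzyme that joins Atg8 to the lipid, read 92.9, 68.5 and 44.5 in the biofilm and 346, 624 and 397 in the bottom layer. It fell 5.56-fold (-2.47, SE 0.27, adjusted p = 2.22e-05), with bottom replicate 2 the highest array. ATG7, the activating enzyme for both Atg8 and Atg12, fell less, 1.59-fold, from 265, 258 and 258 in the bottom layer to 167, 159.9 and 146 (-0.67, SE 0.16, adjusted p = 0.00383). Among the 4242 genes tested these falls ranked 92nd for ATG8, 90th for ATG3 and 846th for ATG7.

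The other conjugation genes showed small differences. ATG4, the protease that trims and releases Atg8, read 200.3 ± 21.1 in the biofilm against 201 ± 38.8 below it (mean ± SD, n = 3 in each group), with a 95% interval of the log2 fold change from -0.41 to 0.42. ATG12, the second ubiquitin-like protein, read 98.9 ± 24.8 against 117 ± 16.9, with an interval from -0.66 to 0.22. ATG10, the conjugating enzyme of Atg12, read 235 ± 35.0 against 219 ± 16.1 (-0.30 to 0.48), and ATG5, to which Atg12 is joined, 809 ± 122 against 725 ± 88.0 (-0.21 to 0.52). These 4 intervals leave room for changes of up to 0.66 on the log2 scale but not for falls of the size measured for ATG8 and ATG3. ATG16, the partner of the Atg12 and Atg5 conjugate, lay below the controls on all 6 arrays, at 0.685 to 11.2, so its probe set gives no fold.

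The kinase complex that starts autophagy was only partly measured. ATG1, the kinase gene, read 12.3, 21.9 and 11.4 in the biofilm, where 2 of 3 arrays lay below the controls, and 55.8, 142 and 68.0 in the bottom layer, where none did. The groups did not overlap, and without the filter on dim genes the log2 fold change of -1.67 passed (adjusted p = 0.000664). Its size depends on the constant added to the signal, with -2.40 when 1 was added and -0.91 when 64 was. ATG13, the regulatory subunit that TORC1 (the nutrient-sensing kinase complex) phosphorylates, was dim with overlapping groups, at 61.6 to 103 over the 6 arrays. Of the starvation scaffold, ATG31 was higher in the biofilm, at 210.3, 211 and 208 against 143, 172 and 114 (0.52, SE 0.18, adjusted p = 0.0285). Leaving out any 1 array but bottom replicate 2 gave adjusted p = 0.0603 to 0.0747. In these fits, which have fewer arrays, the log2 fold change was 0.38 without bottom replicate 3 and between 0.515 and 0.528 in the others. It was 0.32 under median centring (adjusted p = 0.120) and 0.29 with the ACT1 covariate (adjusted p = 0.25). ATG17 read 92.5 ± 14.1 against 111 ± 12.7 and did not pass (-0.62 to 0.15), and ATG29 lay below the controls on all 6 arrays.

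Of the other core genes tested, ATG18 rose and ATG2, ATG9, ATG14 and ATG38 did not pass. ATG18, which binds phosphatidylinositol 3-phosphate and acts with Atg2, rose 1.63-fold in the biofilm, from 179.8, 217 and 202 to 345, 268 and 405 (0.71, SE 0.19, adjusted p = 0.00795). With the ACT1 covariate its increase was 0.58 with adjusted p = 0.0516. ATG2, which encodes a lipid transfer protein, was higher on each biofilm array, at 165 ± 8.53 against 126 ± 22.9, but did not pass (interval -0.04 to 0.76). ATG9, the membrane protein that seeds the autophagosome, read 119 ± 14.1 against 117 ± 16.9 (-0.36 to 0.42), and ATG14, which directs the lipid kinase to autophagy, 122 ± 6.89 against 138 ± 39.3 (-0.57 to 0.32). ATG38, another subunit of that kinase complex, read 176 and 153 on biofilm replicates 1 and 2 but 28.4 on replicate 3, against 165 to 222 in the bottom layer. It did not pass with all arrays (-0.92, SE 0.45, adjusted p = 0.0995), and without biofilm replicate 3 the value was -0.245 (adjusted p = 0.337). It was -0.59 with array weights and -0.68 with the ACT1 covariate, and it passed without biofilm replicate 1 (-1.30, adjusted p = 0.0292) and under median centring (-1.12, adjusted p = 0.0320).

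**Figure D2:**
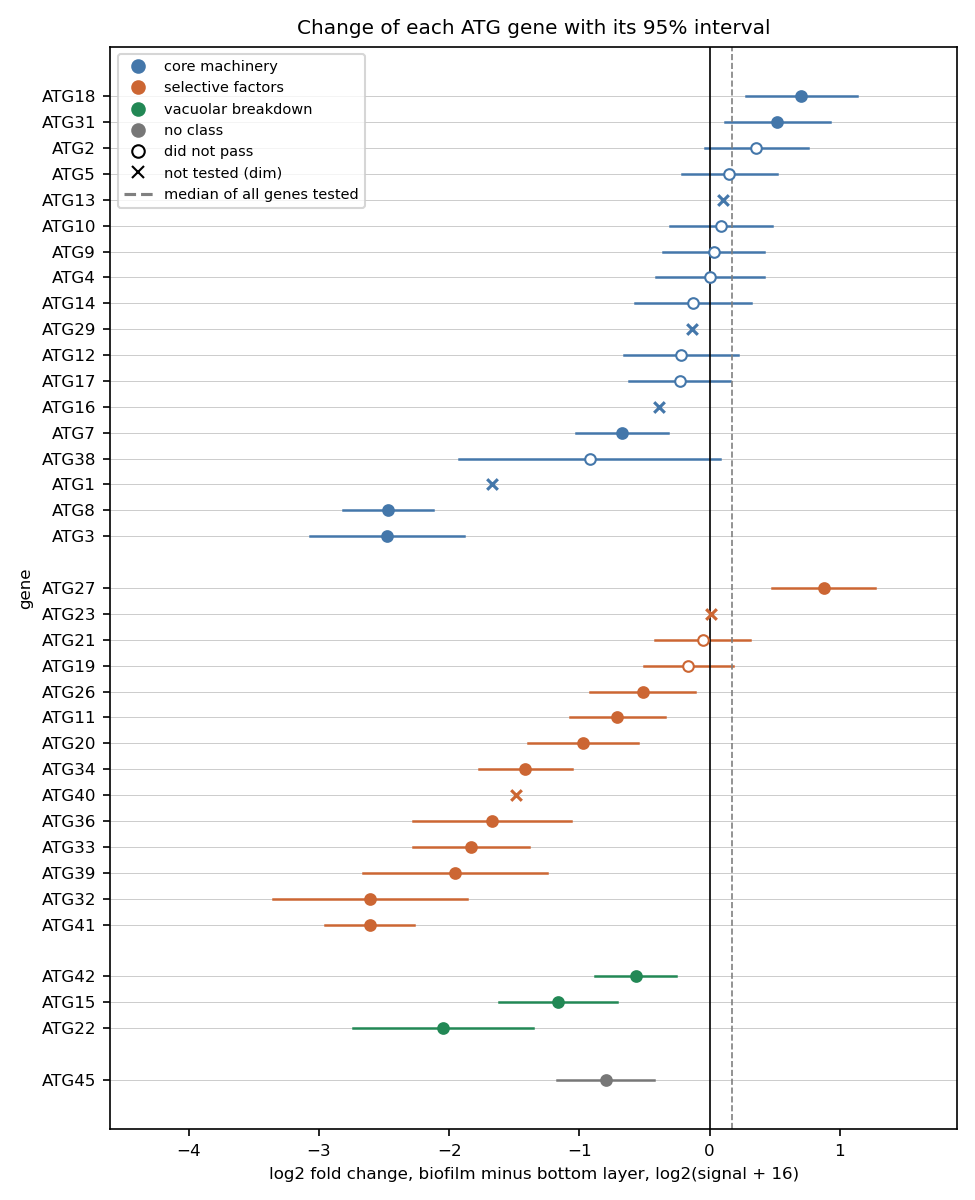
Log2 fold change (biofilm minus bottom layer) of each ATG gene with the 95% interval of the limma fit, by class. Filled circles passed the test, open circles did not, crosses were too dim to be tested and have no interval; ATG8, ATG3, ATG41 and ATG32 lie near -2.5, and ATG18, ATG31 and ATG27 are the 3 genes that passed above 0.

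Receptors of selective autophagy were mostly lower in the biofilm. ATG32, the mitochondrial outer membrane receptor of mitophagy, read 62.2, 48.0 and 41.5 in the biofilm and 345, 719.5 and 229 in the bottom layer. Its fall was 6.09-fold (-2.61, SE 0.34, adjusted p = 7.33e-05), with widely spread bottom arrays that all lay above the biofilm. ATG36, the receptor of peroxisomes, fell 3.19-fold, from 361, 691 and 323 to 133, 98.7 and 147 (-1.67, SE 0.27, adjusted p = 0.000361). ATG39, a receptor of the nuclear envelope and perinuclear endoplasmic reticulum, fell 3.88-fold, from 1265, 1142 and 541 to 314, 159 and 229 (-1.96, SE 0.32, adjusted p = 0.000358). Bottom replicate 2 was the highest array for ATG32 and ATG36, while for ATG39 bottom replicate 3 was well below the other two (-2.33 without it). ATG40, the receptor of cortical and cytoplasmic endoplasmic reticulum, read 34.4, 38.1 and 25.7 against 87.2, 244 and 76.9. It was among the dim genes, and without the filter its log2 fold change of -1.48 had adjusted p = 0.00402. ATG11, the scaffold that links receptors to the kinase complex, fell 1.64-fold, from 296 ± 18.2 to 175 ± 16.4 (-0.71, SE 0.16, adjusted p = 0.00333).

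ATG34 and ATG19, receptor genes for vacuolar enzymes, are paralogs that lie next to each other, and ATG34 fell while ATG19 gave no single answer. ATG34, a receptor of α-mannosidase, fell 2.67-fold, from 1092, 1121 and 960.2 in the bottom layer to 366, 457 and 343 (-1.41, SE 0.16, adjusted p = 3.14e-05). ATG19, the receptor of the Cvt pathway, read 739.8, 658 and 638 in the biofilm and 686, 872 and 735 in the bottom layer with its brighter probe set. The groups overlapped (-0.16, interval -0.50 to 0.18, adjusted p = 0.371). Its dimmer probe set went another way, at 6.09, 17.3 and 13.5 against 81.3, 164 and 67.1, a log2 fold change of -2.02 (adjusted p = 0.00120 over all probe sets). Which of the probe sets follows the ATG19 transcript is not given in the sources used here, so the gene is uncertain. The difference between ATG34 and ATG19 itself was not tested.

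The other factors of selective autophagy include several that also serve the non-selective form, and among them ATG41 and ATG33 had the largest falls. ATG41, whose product binds Atg9 and is also needed for starvation autophagy, read 935, 751 and 919 in the biofilm and 5032, 5998 and 5094 in the bottom layer. Its 6.11-fold fall (-2.61, SE 0.15, adjusted p = 7.43e-07) ranked 77th among the 4242 genes tested, next to that of ATG32, which ranked 78th. ATG33, a mitochondrial protein of mitophagy, fell 3.55-fold, from 4425, 4017 and 5699 to 1608, 1339 and 1020.0 (-1.83, SE 0.20, adjusted p = 2.46e-05). ATG20, a sorting nexin, fell 1.96-fold, from 184 ± 4.49 to 87.5 ± 21.8 (adjusted p = 0.00119). ATG26, a sterol glucosyltransferase whose part in peroxisome breakdown is known from Pichia pastoris, fell 1.43-fold, from 197 ± 33.9 to 133 ± 15.0 (-0.51, SE 0.18, adjusted p = 0.0302). The call of ATG26 was lost without biofilm replicate 1 (-0.46, adjusted p = 0.101), biofilm replicate 3 (-0.49, 0.0774) or bottom replicate 2 (-0.39, 0.104).

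ATG27, a membrane protein needed for Atg9 transport, was the only selective factor tested that rose, from 606, 696 and 454 in the bottom layer to 1003, 1029.8 and 1191 in the biofilm, 1.84-fold (0.88, SE 0.18, adjusted p = 0.0015). It passed in all 18 alternative fits. ATG23, which also acts on Atg9, was dim and alike in mean, at 60.1 ± 4.05 and 59.9 ± 9.86. ATG21, a relative of Atg18, read 245 ± 24.3 and 254 ± 11.2 (interval -0.42 to 0.31).

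Set side by side, the core machinery and the selective factors had different shares of lower genes. Among the core genes 3 of 14 tested were lower and 2 higher, 21.4% and 14.3%, where the rule called 24.4% and 38% of all genes tested. Among the selective factors 9 of 12 tested were lower and 1 higher, 75.0% and 8.33%. Over every member, dim ones included, the median log2 fold change was -0.13 for the 18 core genes and -1.19 for the 14 selective factors. The core value counts ATG16 and ATG29, which lay below the controls on every array. Over the tested genes only, the median was -0.06 for the core and -1.19 for the selective factors. The log2 fold change was below 0 for 10 of the 18 core genes, ATG16 and ATG29 among them, and for 12 of the 14 selective factors. Without the filter on dim genes 4 of 18 core genes and 10 of 14 selective factors passed as lower. For the core gene ATG3 and the selective factor ATG32 a lower call was nearly the only call open, and ATG20 was near that level. The classes were chosen with earlier results of these data known. The difference between the classes is a description and was not tested. It depends on which factors count as selective: for the 6 receptors with the scaffold ATG11 the median was -1.48, and with SNX4 (also called ATG24) added it was -0.97. The core counts leave out VPS30 (also called ATG6), which was lower in the biofilm (-0.63). With it added the core median was -0.134.

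**Figure D3:**
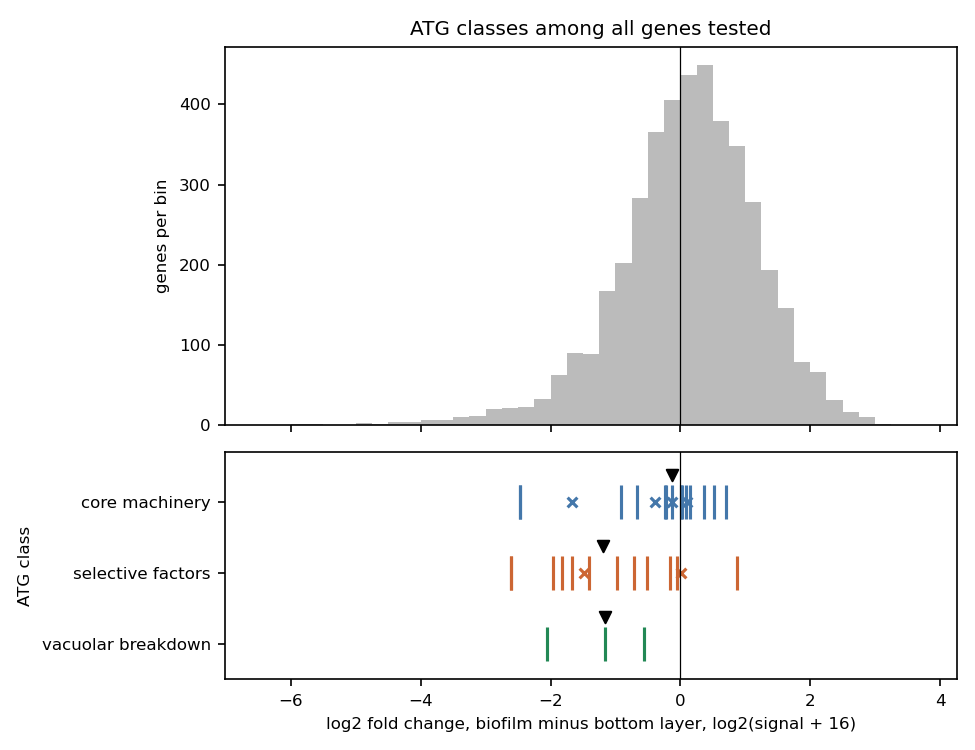
Upper panel, number of genes per bin of log2 fold change (biofilm minus bottom layer) for all 4242 genes tested. Lower panel, the genes of 3 ATG classes on the same axis (bars tested, crosses too dim to be tested, triangles the class median over all its members): core genes centre near 0 with a median of -0.13, and selective factors are spread below 0 with a median of -1.19.

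All 3 ATG genes that act inside the vacuole fell, with a median log2 fold change of -1.16, where 24.4% of all genes tested were lower and 38% higher. ATG22, which encodes a vacuolar exporter of amino acids, read 286, 356 and 211 in the biofilm and 1451, 1738 and 685 in the bottom layer, 4.13-fold lower (-2.05, SE 0.31, adjusted p = 0.000231), with bottom replicate 3 below the other two (-2.45 without it). ATG15, the lipase that opens autophagic bodies, fell 2.24-fold, from 160.5 ± 33.2 to 62.9 ± 14.3 (-1.16, SE 0.20, adjusted p = 0.000598). Its other 2 probe sets were lower as well, with log2 fold changes of -0.69 and -1.04. ATG42, a vacuolar carboxypeptidase, fell 1.48-fold, from 1994 ± 62.3 to 1345 ± 129 (adjusted p = 0.00490). ATG45, which has no class here, fell 1.74-fold, from 263 ± 28.0 to 144 ± 8.98 (-0.80, SE 0.17, adjusted p = 0.00182).

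The cargo genes of the Cvt pathway fell, as did 5 of 7 genes in a list of vacuolar peptidases and related enzymes. All 3 cargo genes measured fell, where 24.4% of all genes tested did: AMS1 (α-mannosidase) from 1233 ± 230 to 355 ± 63.6, APE1 (aminopeptidase I) from 653 ± 234 to 163 ± 32.7 and APE4 (an aspartyl aminopeptidase) from 1542 ± 37.5 to 771 ± 180. Their log2 fold changes were -1.75 (the median), -1.86 and -1.01, with adjusted p from 2.20e-05 to 0.00057. Of 7 vacuolar peptidase and related genes, ATG42 included, 5 fell, 1 rose and PEP4, the proteinase A gene, did not pass (-0.51, adjusted p = 0.114), with a median of -0.75. The lower share was 71.4%, against 24.4% of all genes tested, and the higher share 14.3%, against 38%. PRB1 (proteinase B) fell most, with a log2 fold change of -3.23, followed by PRC1 (carboxypeptidase Y) with -1.19, CPS1 (carboxypeptidase S) with -1.14 and YSP3, a gene for a subtilisin-like protease, with -0.75 (adjusted p = 0.0114), whose call was lost without biofilm replicate 2 (-0.61, adjusted p = 0.0511). PEP4 passed only without bottom replicate 2 (-0.73, adjusted p = 0.0201). LAP3, a cysteine aminopeptidase, was the higher one, at 0.44 (adjusted p = 0.0261), and that call was lost under median centring (0.24, adjusted p = 0.290) and without biofilm replicate 1, biofilm replicate 3 or bottom replicate 2, with adjusted p = 0.0547, 0.0882 and 0.0885.

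Partners of the core machinery and genes for fusion of autophagosomes with the vacuole did not share one direction. VPS30 (also called ATG6), a subunit of the lipid kinase complex that is shared with vacuolar sorting, fell from 406 ± 32.6 to 257 ± 26.8 (-0.63, SE 0.16, adjusted p = 0.00660). Of 7 such partner genes 6 were tested, and 2 were lower, VPS30 and the Rab GTPase gene YPT1 (-0.52, adjusted p = 0.0122), whose call was lost without biofilm replicate 3 (-0.44, adjusted p = 0.0540). The median of the 7 was -0.36, and the lower share of 33.3% compares with 24.4% of all genes tested. SNX4, the sorting nexin partner of Atg20, read 176 ± 42.7 against 231 ± 46.7 and did not pass (-0.36, adjusted p = 0.167), but passed under median centring (-0.56, adjusted p = 0.0263), with array weights (-0.44, adjusted p = 0.0383) and with the ACT1 covariate (-0.71, adjusted p = 0.0176). VAC8, a vacuolar armadillo protein, did not pass either, at 79.0 on bottom replicate 3 and 199 and 306 on the others, and passed without that array (-1.14, adjusted p = 0.00172), under median centring (-0.85, adjusted p = 0.0302), with array weights (-0.79, adjusted p = 0.00794) and with the ACT1 covariate (-1.42, adjusted p = 0.00224). Of 7 fusion genes tested, 3 were higher and 4 did not pass, and the median over 10 measured was -0.01. The higher share of 42.9% was near the 38% of all genes tested. VPS16 of the tethering complex rose from 87.9 ± 4.73 to 357 ± 17.2 (1.84, adjusted p = 5.70e-06), the Rab GTPase gene YPT7 rose 2.14-fold (1.10, adjusted p = 8.24e-05) and VPS33 rose 1.68-fold, although its call was lost without bottom replicate 1 (0.60, adjusted p = 0.0529) and under median centring (0.55, adjusted p = 0.0576). In the bottom layer VPS16 and VPS33 (78.0 ± 28.4) were near or under the level of ATG13, which was left out as dim. For these genes a higher call was nearly the only call open. Of the fusion genes too dim to be tested, VPS41 read 37.2 ± 2.91 in the biofilm against 92.3 ± 11.2 without overlap (-1.02), VAM7 gave 0.23 and CCZ1 -0.09. The SNARE gene VAM3 did not pass (-0.53, adjusted p = 0.0624), but did without biofilm replicate 1 (-0.68, adjusted p = 0.0359) or bottom replicate 3 (-0.66, adjusted p = 0.0412), under median centring (-0.73, adjusted p = 0.00724) and with the ACT1 covariate (-0.89, adjusted p = 0.0118).

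Of 16 listed regulators of ATG transcription 11 were tested, with 2 higher, 3 lower and 6 that did not pass, and a median of -0.15 over the 16. The lower share of 27.3% was near the 24.4% of all genes tested, and the higher share of 18.2% compares with 38%. RPD3 and SIN3, the histone deacetylase and its partner that act with Ume6 to repress ATG8, were higher at 805 ± 117 against 298 ± 27.9 (1.38, adjusted p = 4.45e-05) and 516 ± 94.2 against 265 ± 25.8 (0.91, adjusted p = 0.00132). The gene of the DNA-binding partner, UME6, was lower at 75.4 ± 17.9 against 136 ± 5.97 (-0.76, adjusted p = 0.00490); it was named after its values were seen. SNF1, the energy-sensing kinase, and FYV5 fell as well. SNF1 read 82.0 ± 19.4 against 273 ± 46.4 (-1.57, adjusted p = 7.57e-05), and FYV5 read 78.1 ± 25.2 against 305 ± 16.8 (-1.81, adjusted p = 4.23e-05). The biofilm means of UME6, SNF1 and FYV5 lay near or under the level of ATG13, which was left out as dim (87.3 in the biofilm, 80.8 in the bottom layer). For these 3 genes a lower call was nearly the only call open, so the lower share gives no result for the list. Of 15 meiotic genes listed as targets of Ume6, 14 were too dim to be tested, and the median over the 15 was -0.39. RIM4, a translational repressor of meiosis, fell from 259 ± 93.8 to 47.7 ± 3.39 (-2.06, adjusted p = 2.60e-05). It passed the filter on dim genes only through the bottom layer, so a lower call was nearly the only call open to it. Its fall gives no result for the list. In the list of TORC1 and its upstream factors, 11 were tested, 4 higher and 4 lower, and the median over 16 measured was -0.04. Each share was 36.4%, beside 38% higher and 24.4% lower over all genes tested. The kinase gene SCH9, which acts under TORC1, fell from 362, 775 and 350.4 to 68.2, 76.5 and 59.3 (-2.52, adjusted p = 2.63e-05), and LST8, a subunit of both TOR complexes, fell 2.76-fold. SCH9 was as dim in the biofilm as genes that were left out, so a lower call was nearly the only call open to it. TOR2, the kinase found in both complexes, rose 2.27-fold (1.19, adjusted p = 0.000593), and GTR2, a GTPase upstream of TORC1, rose 1.88-fold (adjusted p = 0.000496).

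**Figure D4:**
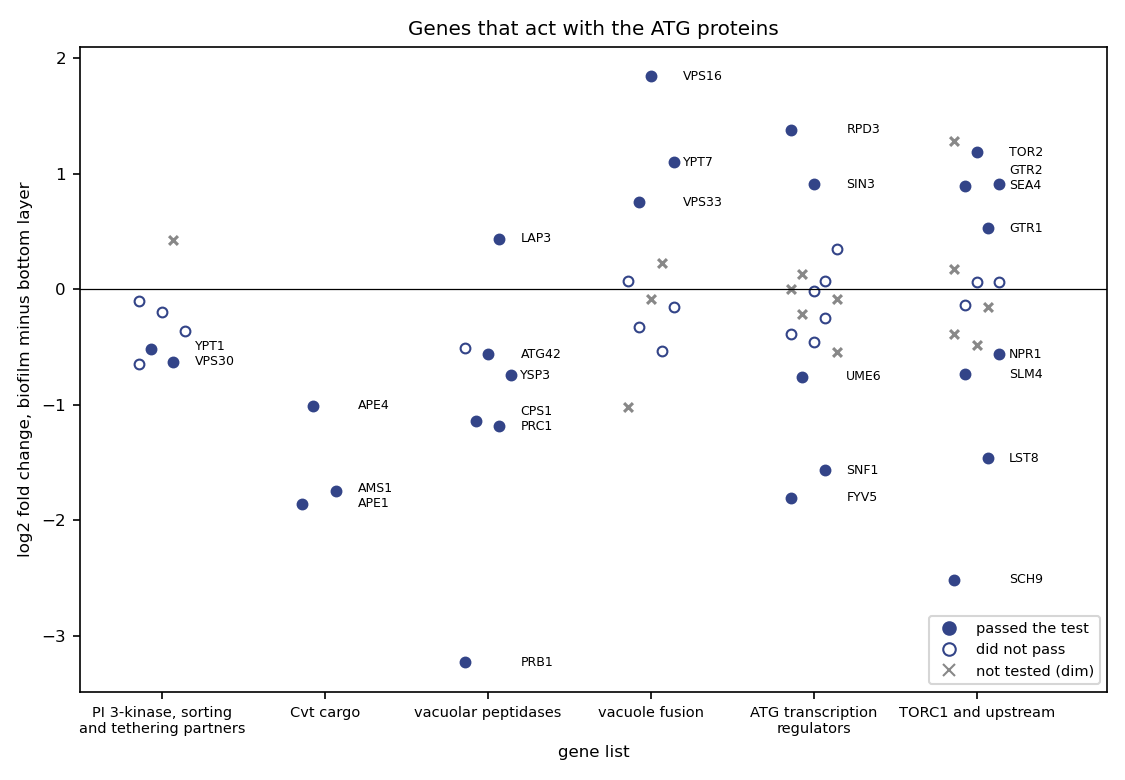
Log2 fold change (biofilm minus bottom layer) of genes in 6 lists that act with the ATG proteins, 1 point per gene; filled points passed the test and are named, open points did not, crosses were too dim to be tested. The 3 Cvt cargo genes and PRB1 lie below 0, VPS16 is the highest point, and the regulator lists hold points on both sides of 0.

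Several ATG genes that fell lie head to head with a gene that rose. In the gene table of assembly R64, used here for names and order only, 9 of the 16 lower ATG genes have a neighbour transcribed away from them across the shared upstream stretch. Of these 9 neighbours 8 were tested, and 6 were higher while 2 did not pass. The untested one, YBR138C, faces ATG42 and was too dim, with a log2 fold change of -1.19. TRM3, which encodes a tRNA methyltransferase and faces ATG20, rose from 116 ± 20.0 to 357 ± 41.6 (1.5), LRO1, a lipid acyltransferase gene facing ATG3, from 85.6 ± 29.4 to 245 ± 11.5 (1.40), and ILV5, of branched-chain amino acid synthesis and facing ATG33, from 967 ± 243 to 2096 ± 182 (1.13). In the bottom layer LRO1 was near the level of ATG13, which was left out as dim, so a higher call was nearly the only call open to it. SED4, an endoplasmic reticulum protein gene facing ATG15, and MRPL15, a mitochondrial ribosomal protein gene facing ATG39, changed by 1.09 and 1.08 with adjusted p = 0.000113 and 0.000162. GON7, facing ATG36, passed narrowly with overlapping groups (0.78, adjusted p = 0.0461). Its call was lost under quantile normalization (adjusted p = 0.0722) and median centring (0.139), without the filter on dim genes (0.0502) and without any 1 array except bottom replicate 3 (0.0860 to 0.141). Among all 355 cases of a lower gene with a tested head-to-head neighbour, the neighbour was higher in 26.8% and lower in 34.4%. This comparison was chosen after the values were seen and was not tested.

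**Figure D5:**
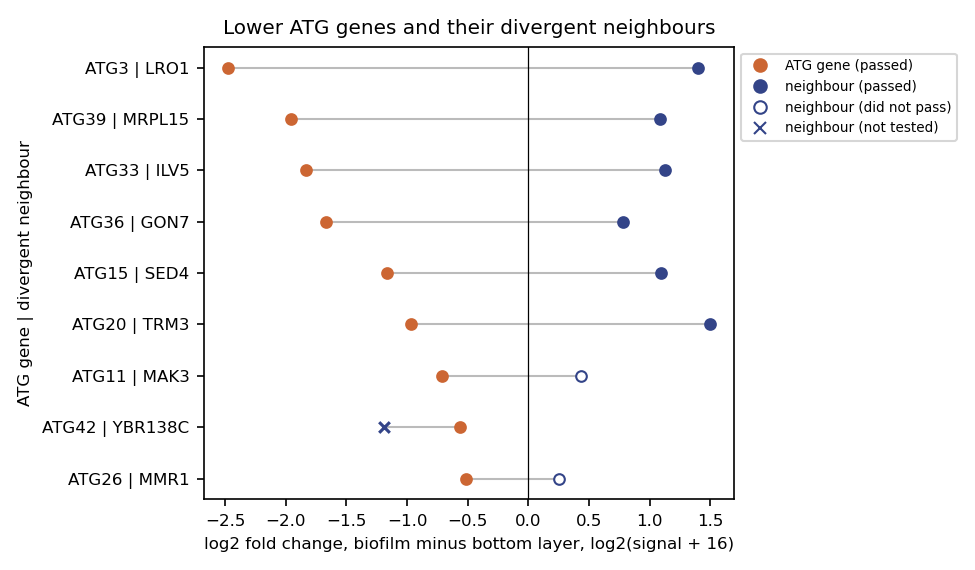
Log2 fold change (biofilm minus bottom layer) of the 9 lower ATG genes that have a head-to-head neighbour and of that neighbour, joined by a line. The neighbours of ATG3, ATG39, ATG33, ATG36, ATG15 and ATG20 passed above 0, those of ATG11 and ATG26 did not pass, and that of ATG42 was too dim to be tested.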

How the data were processed

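For every array the authors deposited 1 intensity a probe set, on a linear scale. The submitters' processing notes name MAS5 as the tool, without a version. All 6 arrays share a trimmed mean of 500, as read from the values. Of 9335 probe sets, 60 were controls, 6504 were paired with 1 gene by the platform table, and neither the 328 with several genes nor the 2443 outside the table entered the fit. All 36 ATG genes matched the R64 gene table. For each of 5656 genes the brightest probe set was kept, the dimmest 25%, 1414 genes, were left out, and log2(signal + 16) of 4242 genes was fitted with limma 3.58.1 in R 4.3.3 (lmFit, eBayes with trend, two-sided, Benjamini-Hochberg, threshold 0.05, no replicate block). Folds of dim genes are understated by the added 16. The number of arrays limits precision, and log2 fold changes had a median standard error of 0.18.

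Every ATG gene was named (ATG44 was not analysed here); of other lists, up to 4 genes by smallest p, VPS30 and SNX4. UME6, LAP3, PEP4, neighbours and mating type markers were named beyond this rule. Members, classes and lists were chosen with earlier results of these data known. The procedure was tested on simulated data in which the changes were known. It recovered 11.9% of log2 changes of 0.5, 74.6% of changes of 1 and 98.5% of changes of 2, so small changes were mostly missed. Of 128 genes called, 5 were false. The changes were put into 67, 67 and 66 of 4242 genes, far fewer than the 62.5% called in the data. Alternatives were other added constants, filters, normalizations, fits, probe sets, members and each array left out. Figures used matplotlib 3.10.9 in Python 3.11.15. Sequences were not used here.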

Additional observations from a re-analysis of the deposited data

How the results depend on the processing

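Of the 16 lower ATG genes 15 were lower in every one of the 18 alternative fits that tested them, all but ATG26, and of the 3 higher ones only ATG27 was higher in each. Leaving out arrays gave 15 to 16 lower and 2 to 3 higher genes, medians of -0.211 to -0.083 for core genes and -1.32 to -1.0 for selective factors. With the dimmest 50% left out 7 were lower, since 9 of the 16 were then not tested. The ACT1 covariate left 1 higher and 16 lower. The replicate block left 3 higher and 16 lower, and medians of -0.13 and -1.19, so it changed none of these; over all genes it gave 1590 higher and 1046 lower. Same-numbered arrays did not deviate together (r of deviations -0.01, -0.09 and 0.16), and only biofilm replicate 3 correlated best with its own number, so the numbers were not taken as pairs. The core median was -0.33 under median centring and -0.0431 with array weights. The selective median was -1.39 under median centring, -0.838 with 64 added, -0.972 with SNX4 and -1.48 for receptors with ATG11. Centring moved the median of all genes tested from 0.17 to -0.03. ATG19 passed with the mean of its probe sets (-1.09, adjusted p = 0.00104).

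Several genes that passed in none of these fits changed sign on the log2 scale. Under median centring the values were -0.1 for ATG13, -0.191 for ATG23, -0.112 for ATG10, -0.169 for ATG9, -0.0498 for ATG5 and -0.197 for ATG4. ATG4 was -0.0459 under quantile normalization, -0.0456 with array weights and -0.257 with the ACT1 covariate. With that covariate ATG13 was -0.166, ATG14 0.178 and ATG21 0.0248, and with array weights ATG13 was -0.0125. Over fits without 1 array, ATG4 ran from -0.134 to 0.127, ATG9 from -0.0530 to 0.128, ATG10 from -0.00589 to 0.197, ATG13 from -0.052 to 0.177, ATG14 from -0.274 to 0.0712, ATG23 from -0.0436 to 0.114 and ATG21 from -0.109 to 0.0236. The cause of these changes was not tested. ATG16 and ATG29, below the controls on every array, give no measure of change, and the sign of ATG29 turned with the setting. The filter by the unspiked controls, with 18 lower and 3 higher of 34 tested, was chosen after seeing the data.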
